A study of Mus musculus with 4 samples.

Results

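The genes described here are 49 genes of DNA replication and S phase, chosen by symbol from a list of replication proteins out of 24453 genes counted. All 49 were found and all 49 passed the filter on low counts. They were sorted into 15 genes of origin licensing, 25 genes of the replication fork, 4 genes of nucleotide supply, 3 genes of S-phase entry and 2 genes of maintenance DNA methylation. RNA was sequenced from EpCAM-positive cells sorted from the tongue epithelium of mouse embryos at embryonic day 16, without the circumvallate papilla at the back of the tongue. The first group, Ring1a/b 2KO, is labelled Ring1a-/- Ring1bfl/fl K14-Cre+. It carries a germline loss of Ring1 (Ring1a) and a conditional allele of Rnf2 (Ring1b) that is cut by Cre under the Krt14 promoter, active in basal keratinocytes. The second group is labelled control, and its alleles at Ring1, Rnf2 and Cre are not stated. Each group held 2 libraries. The labels do not say whether the libraries of a group came from separate embryos or from pools. The spread behind each p-value is therefore that of 2 libraries a group and could be technical. Ring1 and Rnf2 are the E3 ligases of Polycomb repressive complex 1, which ubiquitinates histone H2A and keeps genes silent.

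A chromosome is copied from many origins. In G1 the origin recognition complex, with Cdc6 and Cdt1, loads the ring-shaped Mcm2 to Mcm7 helicase on DNA, and geminin blocks Cdt1 once S phase has begun. Cdc45 and the GINS complex then activate the helicase, replication factor C loads the sliding clamp Pcna, and the polymerases alpha, delta and epsilon copy the strands. Ribonucleotide reductase, thymidylate synthase and thymidine kinase supply the deoxynucleotides. Many of these genes are transcribed at the entry into S phase under E2F factors. In stratified epithelium such as that of the tongue, replication takes place mainly in the basal layer.

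Totals were 18039767 and 20545262 counts in 2KO-labelled replicates 1 and 2 and 20624055 and 16256569 in control replicates 1 and 2. The basal markers Krt5, Krt14 and Trp63 and the sorting marker Epcam were present in every library. The 6 defining epithelial markers summed to 9392 and 9868 CPM in the 2KO-labelled libraries and to 13800 and 11444 CPM in control, and 2 of them, Krt5 and Krt14, fell. Neither targeted gene was lower in the 2KO-labelled libraries. Ring1 had 16.8 and 15.04 CPM (counts per 1000000, on TMM-scaled library sizes) in the 2KO-labelled libraries, against 9.02 and 8.57 CPM in control. Rnf2 had 62.9 and 62.4 CPM in the 2KO-labelled libraries, against 33.97 and 51.3 CPM in control. Neither difference passed the test (adjusted p = 0.101 for Ring1 and 0.126 for Rnf2, edgeR), although Rnf2 was called higher without control replicate 2 (adjusted p = 0.00853). A count over a whole gene does not show whether a floxed exon is missing. The genotype is therefore unchecked, and every direction below is that of the libraries as labelled. Control replicate 2 stood apart in skeletal muscle markers. The summed level of 9 such markers was 64.7 and 78.8 CPM in the 2KO-labelled libraries, against 60.7 CPM in control replicate 1 and 391 CPM in control replicate 2, and none of the 8 tested passed. Of 8 endothelial markers, none passed the test, and they summed to 33.8 and 62.5 CPM in the 2KO-labelled libraries and to 27.8 and 21.5 CPM in control. Their median log2 fold change (2KO-labelled over control) was 1.27, with a range of -0.81 to 2.09. Both 2KO-labelled libraries lay above both controls for 5 of them and below for 0, against 29.0% and 28.7% of all genes. As background for every marker list, 4.92% of all genes tested were called lower and 7.00% higher. Among other markers tested, 1 of 8 fibroblast and 1 of 5 neural genes fell, and 1 of 4 blood genes (Cd68) and 1 of 4 Merkel cell genes (Piezo2) rose. Each of these lists held log2 fold changes (2KO-labelled over control) in both directions. They ran from -0.99 to 2.71 for fibroblast, -2.40 to 2.78 for neural, -3.98 to 1.37 for blood and -0.20 to 1.12 for Merkel cell genes. The haemoglobin genes Hba-a1 and Hbb-bs had no count in any library. What part such cells had in the results was not tested. The ribosomal RNA precursor Rn45s took 22.9% and 20.2% of counts in the 2KO-labelled libraries and 16.7% and 15.3% in control.

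Of the 49 replication genes, 8 fell in the 2KO-labelled libraries and none rose. The genes that fell were Rrm1, Lig1, Dnmt1, Rpa1, Mcm5, Orc2, Rfc1 and Fen1, by 1.51-fold to 2.10-fold. Calls are by edgeR's quasi-likelihood test with Benjamini-Hochberg adjustment over 15336 genes and a threshold of 0.05. Over all genes tested 4.92% were called lower and 7.00% higher, beside 16.3% and none of the 49. At an unadjusted p under 0.05, 18 members were lower and 1 was higher, against 13.2% and 14.5% of all genes. The median log2 fold change (2KO-labelled over control) was -0.30 over the 49 members and 0.0065 over all genes tested. It was negative for 36 members, against 49.6% of all genes, and 17 were lower by at least 1.5-fold, against 16.5%. Both 2KO-labelled libraries lay below both control libraries for 24 members, or 48.98%, against 28.7% of all genes. They lay above both for 4 members, Orc1, Orc3, Orc4 and Rfc5, against 29.0% of all genes, and the groups overlapped for 21 (42.3% of all genes). Members come from shared libraries and are not independent of each other, so these shares describe the list and carry no test. In bulk RNA, fewer cycling cells and less RNA per cycling cell cannot be told apart.

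**Figure D1:**
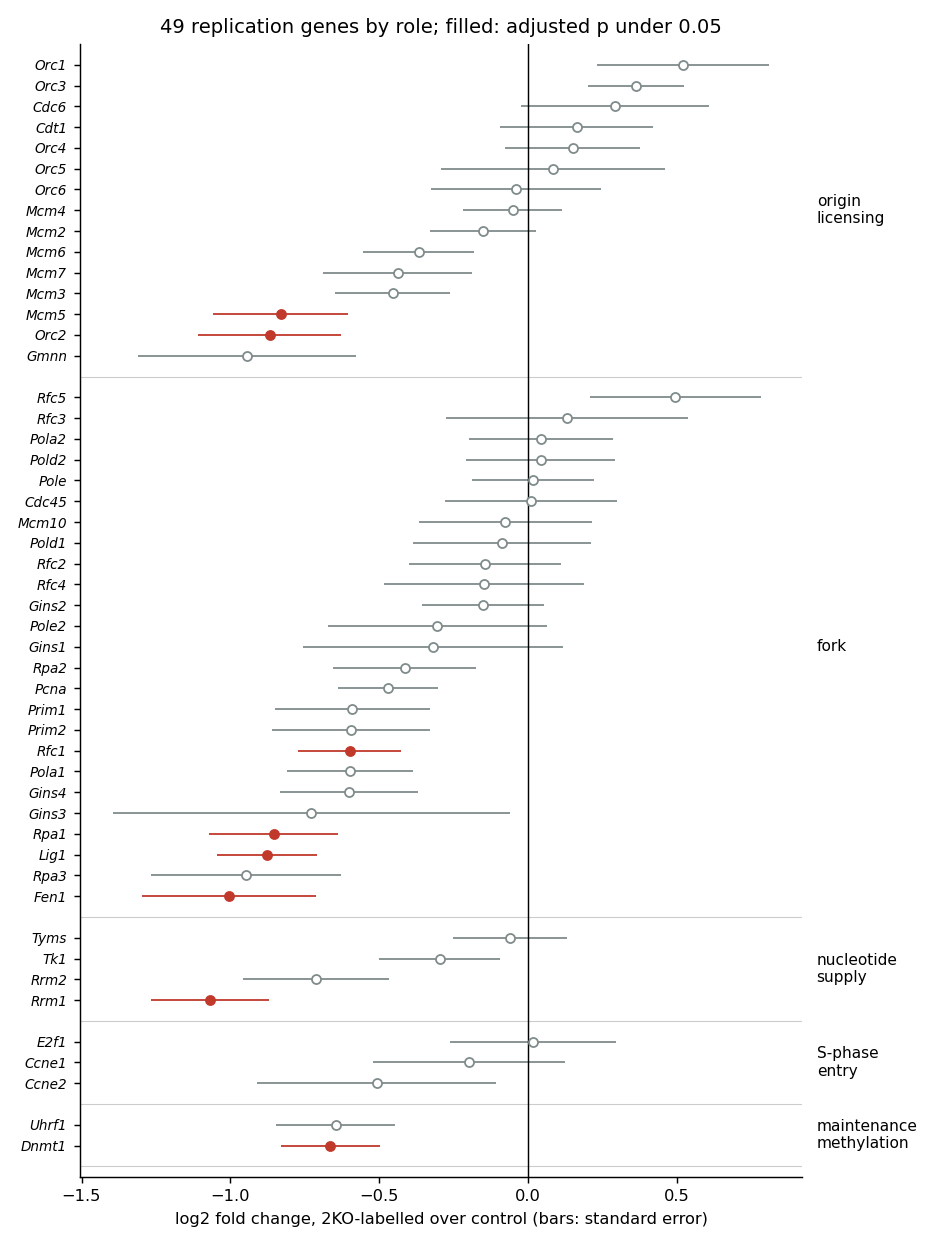
Log2 fold change of each of the 49 replication genes (x axis, 2KO-labelled over control, bars are standard errors), ordered within its role (y axis); filled points passed an adjusted p of 0.05. The 8 filled points lie between -1.07 and -0.60, while no gene right of 0 passed and the highest, Orc1, stands at 0.52.

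The number of genes called rested on single libraries. Without control replicate 2, the library with the high muscle markers, 3 members were lower (Lig1, Rrm1 and Rpa3), against 5.29% of all genes. Without 2KO-labelled replicate 1, 3 were lower (Lig1, Rrm1 and Rpa1), against 3.36%. Without 2KO-labelled replicate 2 there were 7, against 3.56%, and without control replicate 1 there were 15, against 6.85%. No member was called higher in any of these fits. Control replicate 2 exceeded control replicate 1 for 36 of the 49 members, against 49.6% of all genes tested. The part of the muscle markers in these values was not tested. The settings moved the count too. It was 5 with upper-quartile scaling (3.98% of all genes), 13 when genes of low count were kept (6.47%), 11 with the replicate number as a block (5.74%) and 13 with that block and a GC content and length offset (11.4%). On the deposited FPKM values 1 member, Lig1, was lower with a pseudocount of 1 (2.07%) or 0.1 (1.48%), and 0 with no filter (0.00%), where at an unadjusted p under 0.05 12 members were lower and 1 was higher, against 7.84% and 12.8% of all genes. Lig1 and Rrm1 were the members called in the main comparison and in all 14 alternatives on counts.

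The roles differed in their values. For origin licensing 2 of 15 genes fell (13.3%), where 4.92% of all genes tested were called lower. The median log2 fold change was -0.052, beside 0.0065 for all genes. Among fork genes 4 of 25 fell (16.0%), with a median of -0.32. For nucleotide supply 1 of 4 fell (25.0%), with a median of -0.50. The licensing genes summed to 647 and 728 CPM in the 2KO-labelled libraries and 722 and 783 CPM in control, and the groups overlapped. Within them, the Mcm2 to Mcm7 genes summed to 335 and 406 CPM in the 2KO-labelled libraries and 432 and 489 CPM in control. The Orc1 to Orc6 genes summed to 261 and 253 CPM in the 2KO-labelled libraries and 231 and 224 CPM in control. Of these Orc sums, Orc3 held 164 and 157 CPM in the 2KO-labelled libraries and 136 and 114 CPM in control. The fork genes summed to 633 and 711 CPM in the 2KO-labelled libraries and 859 and 961 CPM in control. The nucleotide genes summed to 248.6 and 263 CPM in the 2KO-labelled libraries and 354 and 492 CPM in control. In the fork and nucleotide groups both 2KO-labelled sums lay below both control sums. Of the nucleotide sums, the called gene Rrm1 held 104 and 130 CPM in the 2KO-labelled libraries and 202 and 289 CPM in control. Of the 4 nucleotide genes, 3 had both 2KO-labelled values below both controls, and Tyms overlapped between the groups. In separate lists of other genes of these roles, described below, the order was not the same. The median log2 fold change was -0.31 over 13 other licensing and firing genes. It was -0.42 over 23 other fork and checkpoint genes and -0.19 over 16 other nucleotide supply genes. The difference between roles has no test here.

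**Figure D2:**
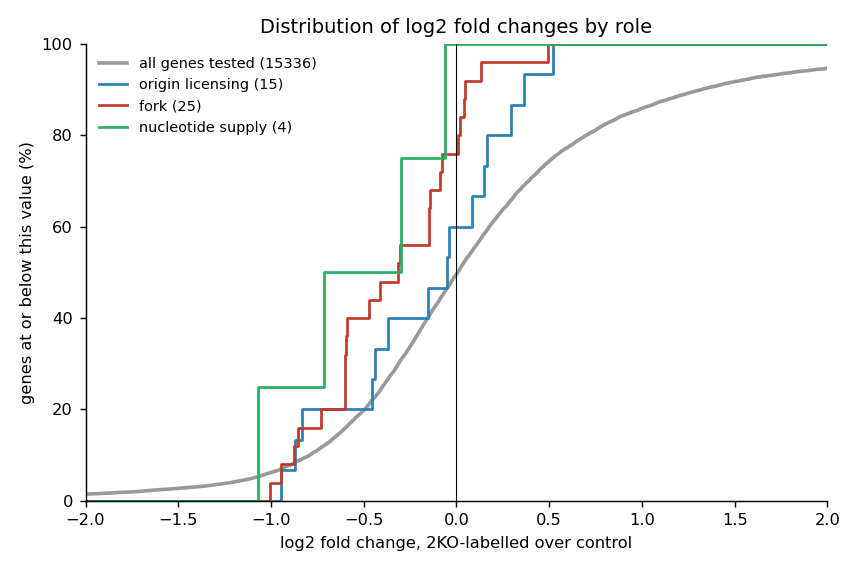
Cumulative share of genes (y axis, percent) at or below each log2 fold change (x axis, 2KO-labelled over control) for origin licensing, fork and nucleotide supply genes and for all 15336 genes tested. The licensing curve crosses the middle of the plot near the curve of all genes (medians -0.052 and 0.0065), and over the middle of the plot the fork and nucleotide curves lie left of it (medians -0.32 and -0.50).

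The promoters of the 49 genes were searched for E2F words, since E2F factors drive many of these genes. RefSeq promoters (GRCm38.p6, 250 bases before to 50 after the start) were matched for 40 members. The words TTTCCCGC, TTTCGCGC, TTTGCCGC and TTTGGCGC were looked for on both strands, and they can overlap each other. At least 1 E2F word was found in 13 of the 40 promoters, or 32.5%, against 3.88% of 11560 tested genes with a promoter. The word was present in 8 of 13 licensing promoters, 5 of 19 fork promoters and 0 of 4 nucleotide supply promoters. Of the 8 members that fell, 1 (Mcm5) held a word, against 12 of 32 (37.5%) of the others. For some genes the RefSeq window lies wholly before the gene start in GENCODE, so words at that start were missed. Among them are Fen1 (window 10204344 to 10204643, start 10204169) and Lig1 (window 13276925 to 13277224, start 13277283). The word CCAAT, the core of the NF-Y motif, was found in 62.5% of the members' promoters and 38.2% of those of tested genes. A word is not a bound site, and its lack says only that these letters are not in the window. The 250 bases before the start are printed 5′ to 3′ for a licensing gene that fell and holds overlapping words (Mcm5), a licensing gene that was not called and holds 3 words (Mcm6), a fork gene that was not called (Pola1) and the nucleotide gene with the greatest decrease, which holds none (Rrm1). Capitals mark E2F words.
Mcm5 (chr8:75109259-75109508, plus strand): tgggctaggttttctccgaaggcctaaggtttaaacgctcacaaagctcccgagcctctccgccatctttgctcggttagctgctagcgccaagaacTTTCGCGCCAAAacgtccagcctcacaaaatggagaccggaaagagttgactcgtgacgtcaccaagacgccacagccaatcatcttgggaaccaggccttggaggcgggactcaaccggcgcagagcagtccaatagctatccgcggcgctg
Mcm6 (chr1:128359706-128359955, minus strand): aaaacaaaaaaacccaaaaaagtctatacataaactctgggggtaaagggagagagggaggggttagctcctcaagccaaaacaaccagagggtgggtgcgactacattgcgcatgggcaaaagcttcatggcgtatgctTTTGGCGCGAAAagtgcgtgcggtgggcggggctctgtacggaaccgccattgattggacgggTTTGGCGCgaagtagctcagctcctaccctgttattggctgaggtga
Pola1 (chrX:93632156-93632405, minus strand): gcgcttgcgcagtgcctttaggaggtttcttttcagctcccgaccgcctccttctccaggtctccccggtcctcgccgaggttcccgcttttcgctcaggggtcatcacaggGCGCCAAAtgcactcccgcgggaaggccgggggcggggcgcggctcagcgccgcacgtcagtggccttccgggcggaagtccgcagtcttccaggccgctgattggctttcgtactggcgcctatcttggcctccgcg
Rrm1 (chr7:102441445-102441694, plus strand): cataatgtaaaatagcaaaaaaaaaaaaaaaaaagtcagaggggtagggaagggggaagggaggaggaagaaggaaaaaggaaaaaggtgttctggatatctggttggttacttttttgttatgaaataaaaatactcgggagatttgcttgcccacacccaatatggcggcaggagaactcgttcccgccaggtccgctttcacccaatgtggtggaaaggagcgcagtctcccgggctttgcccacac

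Among the genes that load the helicase, the origin recognition complex showed values in both directions. Orc2 (chromosome 1, 58462771 to 58505109, mm10), a core subunit, had 16.3 and 18.5 CPM in the 2KO-labelled libraries, against 29.5 and 34.0 CPM in control. Both 2KO-labelled values lay below both control values, and the gene fell by a log2 fold change of -0.87 (standard error 0.24, edgeR adjusted p = 0.0396). Its exons share 1150 bases with Nif3l1 on the other strand. Nif3l1 itself stood at a log2 fold change of -0.0042 (adjusted p = 0.995). The call ended with upper-quartile scaling (adjusted p = 0.0501), without control replicate 2 (0.088) and without 2KO-labelled replicate 1 (0.192) or 2 (0.0853).

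Orc1, the ATPase subunit whose level varies through the cell cycle in other cells, had 19.9 and 16.5 CPM in the 2KO-labelled libraries, against 14.3 and 11.1 CPM in control. Orc3 had 164 and 157 CPM in the 2KO-labelled libraries, against 136 and 114 CPM in control. Both were above control in each library, but neither passed (log2 fold changes 0.52 and 0.36, edgeR adjusted p = 0.276 and 0.17). Orc4 and Orc5 stood at log2 fold changes of 0.15 and 0.084 and Orc6 at -0.040, and none passed (adjusted p = 0.721, 0.916 and 0.949). Levels can be set side by side per length, in the authors' FPKM values (fragments per kilobase and per 1000000 mapped). Orc1 was the lowest of the 6 subunits in all 4 libraries, at 3.69 and 3.03 FPKM in the 2KO-labelled libraries and 3.03 and 2.26 FPKM in control. The ratio of Orc2 to the median of the other 5 subunits was 0.651 and 0.872 in the 2KO-labelled libraries and 1.39 and 1.80 in control. Orc2 thus stood below that median in both 2KO-labelled libraries and above it in both control libraries.

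The loading factors Cdc6 and Cdt1 did not pass, and their groups overlapped. Cdc6 had 14.1 and 20.9 CPM in the 2KO-labelled libraries, against 16.9 and 11.7 CPM in control. Cdt1 had 29.1 and 30.9 CPM in the 2KO-labelled libraries, against 21.1 and 32.5 CPM in control. Gmnn, which encodes geminin, the inhibitor of Cdt1, had 7.43 and 16.97 CPM in the 2KO-labelled libraries, against 21.03 and 26.1 CPM in control. Both 2KO-labelled values were the lower ones but lay far apart, and the log2 fold change of -0.94 did not pass (standard error 0.37, edgeR adjusted p = 0.12). It passed when 2KO-labelled replicate 2 was left out (-1.67, adjusted p = 0.00437), and likewise control replicate 1 (-1.07, 0.0319). It also passed with all genes kept regardless of count (0.0201) and with the replicate number as a block (0.0413).

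Of the 6 helicase subunits Mcm5 was the one that fell. Mcm5 (chromosome 8, 75109569 to 75128439) had 24.6 and 32.8 CPM in the 2KO-labelled libraries, against 46.0 and 56.0 CPM in control. The groups did not overlap, and the log2 fold change was -0.83 (standard error 0.23, edgeR adjusted p = 0.0372). The call ended without control replicate 2 (adjusted p = 0.085) and without 2KO-labelled replicate 1 (0.219). Per length Mcm5 was already the lowest of the 6 in control, at 14.8 and 18.1 FPKM, and stood at 8.74 and 11.1 FPKM in the 2KO-labelled libraries. Its ratio to the median of the other 5 subunits was 0.376 and 0.444 in the 2KO-labelled libraries and 0.550 and 0.555 in control.

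The other helicase subunits did not pass. Mcm3 had 51.8 and 56.2 CPM in the 2KO-labelled libraries, against 64.1 and 84.0 CPM in control (log2 fold change -0.45, edgeR adjusted p = 0.155). Mcm6 had 63.0 and 82.4 CPM in the 2KO-labelled libraries, against 88.3 and 99.3 CPM in control (log2 fold change -0.37, adjusted p = 0.233). For both the 2KO-labelled values were the lower ones. Mcm7, whose annotated exons, merged over all its transcripts, share bases with Mir25 and Mir93, overlapped between the groups. It had 36.8 and 49.5 CPM in the 2KO-labelled libraries, against 45.0 and 71.9 CPM in control (log2 fold change -0.44, edgeR adjusted p = 0.289). Mcm3 and Mcm7 were called lower without control replicate 1 (adjusted p = 0.0419 and 0.026). Mcm2 and Mcm4 stood at log2 fold changes of -0.15 and -0.052 (adjusted p = 0.638 and 0.879). Mcm4 had 101 and 121 CPM in the 2KO-labelled libraries, against 117 and 113 CPM in control. The highest subunit exceeded the lowest by 3.42 and 3.23 times in FPKM in the 2KO-labelled libraries and by 2.17 and 1.80 times in control.

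**Figure D3:**
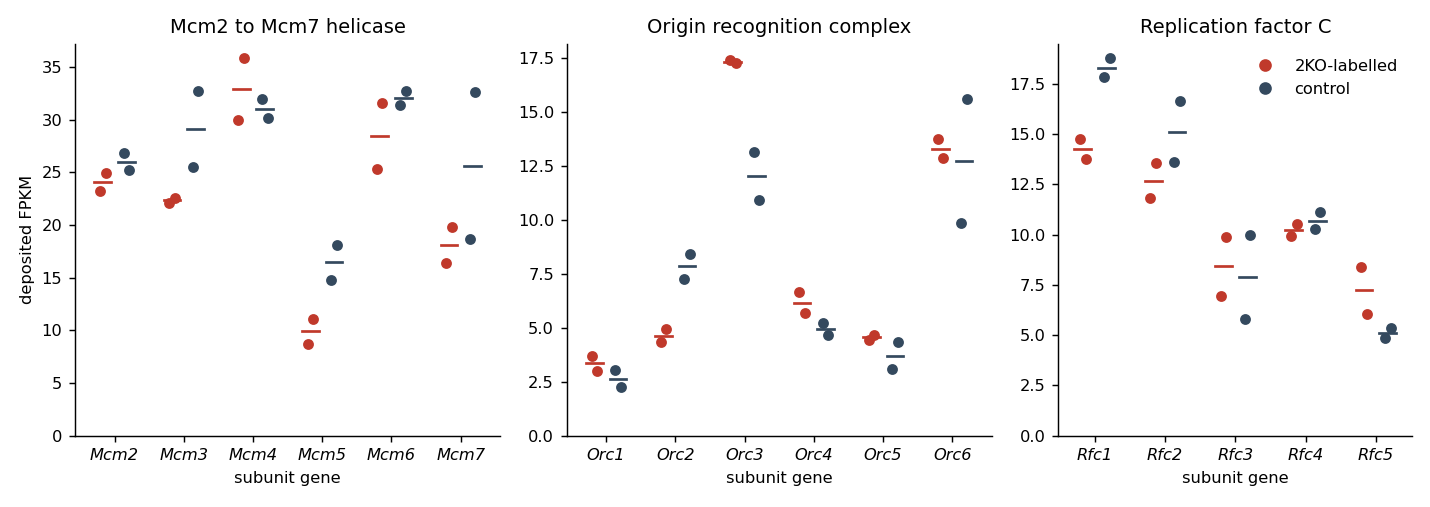
Deposited FPKM (y axis) of the subunit genes of the Mcm2 to Mcm7 helicase, the origin recognition complex and replication factor C (x axis) in each library, with the 2 libraries labelled 2KO to the left of the 2 control libraries for each gene; bars are means. Mcm5, Orc2 and Rfc1 are the genes whose 2KO-labelled points lie lower with an adjusted p under 0.05 in the test on counts, and the Orc3 points at 17.4 and 17.3 FPKM lie above control.

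Of the 4 fork genes that fell, Fen1 and Lig1 decreased the most, and both finish the lagging strand. Lig1 (chromosome 7, 13277283 to 13311433), the ligase that joins Okazaki fragments, had 66.5 and 78.5 CPM in the 2KO-labelled libraries, against 131 and 135 CPM in control. The 2 control values were nearly equal and both lay well above the 2KO-labelled ones. Lig1 fell by a log2 fold change of -0.88 (standard error 0.17, edgeR adjusted p = 0.00765), a decrease of 1.84-fold. Over the alternatives its log2 fold change lay between -1.11 and -0.75, with an adjusted p of 5.87e-05 to 0.0942. The call ended in 1 alternative, on FPKM values with no filter. Its exons share 247 bases with Zswim9 on the other strand.

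Fen1 (chromosome 19, 10199132 to 10204169), the nuclease that trims the flaps of Okazaki fragments, had 10.4 and 11.6 CPM in the 2KO-labelled libraries, against 18.3 and 26.1 CPM in control. It fell by a log2 fold change of -1.01 (standard error 0.29, edgeR adjusted p = 0.0482), close to the threshold. The call ended with limma-voom (adjusted p = 0.0563), with upper-quartile scaling (0.0602), without control replicate 2 (0.182) and without 2KO-labelled replicate 1 (0.172) or 2 (0.0924). Exons of the predicted gene Gm10143 cover 1909 bases of Fen1 on the other strand. No gene of that name was among those counted, so whether the overlap affected the Fen1 value is not known.

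Pcna, the clamp to which both enzymes bind, had 83.7 and 98.0 CPM in the 2KO-labelled libraries, against 121 and 131 CPM in control. The groups did not overlap, but the log2 fold change of -0.47 did not pass (standard error 0.17, edgeR adjusted p = 0.0931). Pcna had the highest level per length of all 49 genes in both groups, at 55.2 and 63.1 FPKM in the 2KO-labelled libraries and 70.8 and 74.3 FPKM in control. The ratio of Lig1 to Pcna in FPKM was 0.435 and 0.423 in the 2KO-labelled libraries and 0.616 and 0.582 in control, so Lig1 was lower relative to Pcna in both.

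Replication factor C, the clamp loader, fell in its large subunit. Rfc1 (chromosome 5, 65261850 to 65335670) had 66.0 and 63.2 CPM in the 2KO-labelled libraries, against 90.2 and 106 CPM in control. It fell by a log2 fold change of -0.60 (standard error 0.17, edgeR adjusted p = 0.0464). The call ended with upper-quartile scaling (adjusted p = 0.0641), without control replicate 2 (0.138) and without 2KO-labelled replicate 1 (0.142) or 2 (0.193). The small subunits Rfc2, Rfc3 and Rfc4 overlapped between groups and stood at log2 fold changes of -0.14, 0.13 and -0.15 (adjusted p = 0.767, 0.875 and 0.822). Rfc5 had 23.1 and 19.6 CPM in the 2KO-labelled libraries, against 18.0 and 12.3 CPM in control, and did not pass (log2 fold change 0.50, adjusted p = 0.299).

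RPA coats single-stranded DNA as a complex of 3 subunits, and 1 of them passed the test. Rpa1 (chromosome 11, 75298166 to 75348324), the large subunit that binds DNA, had 26.5 and 22.7 CPM in the 2KO-labelled libraries, against 42.1 and 46.9 CPM in control. It fell by a log2 fold change of -0.85 (standard error 0.22, edgeR adjusted p = 0.0278). The call ended without control replicate 2 (adjusted p = 0.0515) and without 2KO-labelled replicate 2 (0.149). Rpa3 had 7.94 and 10.5 CPM in the 2KO-labelled libraries, against 20.2 and 15.3 CPM in control. Its log2 fold change of -0.95 was of similar size but less precise (standard error 0.32, adjusted p = 0.08), and it passed without control replicate 2 (adjusted p = 0.0282). Rpa2 had 21.8 and 25.5 CPM in the 2KO-labelled libraries, against 27.8 and 35.3 CPM in control. All 3 genes had their 2KO-labelled values below both controls, and their sum was 56.3 and 58.7 CPM in the 2KO-labelled libraries and 90.1 and 97.5 CPM in control.

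DNA polymerase alpha and primase, which lay down the RNA-DNA primer, had no member past the threshold. Pola1, the catalytic subunit, had 41.5 and 56.9 CPM in the 2KO-labelled libraries, against 66.5 and 82.6 CPM in control (log2 fold change -0.60, edgeR adjusted p = 0.092). It was called lower without control replicate 1 (adjusted p = 0.0200) and without 2KO-labelled replicate 2 (0.0408). It was also called with the replicate block (0.0479) and when genes of low count were kept (0.0269). The primase genes Prim1 and Prim2 stood at log2 fold changes of -0.59 and -0.60 (adjusted p = 0.168 and 0.172), with both 2KO-labelled values below both controls. Prim1 was called lower without control replicate 1 (adjusted p = 0.0384). Pola2 had 21.3 and 24.2 CPM in the 2KO-labelled libraries, against 22.3 and 21.9 CPM in control, and the groups overlapped.

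No gene of the leading and lagging strand polymerases or of helicase activation passed the threshold. Pole, the catalytic subunit of polymerase epsilon, had 44.5 and 59.96 CPM in the 2KO-labelled libraries, against 50.5 and 52.8 CPM in control. Pold1, the catalytic subunit of polymerase delta, had 13.7 and 13.4 CPM in the 2KO-labelled libraries, against 16.1 and 12.6 CPM in control. Pole2, Pold2, Mcm10 and Cdc45 overlapped between the groups as well. Of the GINS genes, Gins4 had 20.2 and 24.7 CPM in the 2KO-labelled libraries, against 32.2 and 36.1 CPM in control, with both 2KO-labelled values below both controls and a log2 fold change of -0.60 that did not pass (standard error 0.23, edgeR adjusted p = 0.119). Gins1 and Gins3 overlapped between the groups. Gins3 was the member with the fewest reads, between 41 and 134 counts a library, so a difference was hard to detect at this depth. The FPKM of Gins2 was the highest of the GINS genes, at 54.6 and 49.1 in the 2KO-labelled libraries and 54.2 and 58.8 in control. Its exons share 2758 bases with Gse1 on the other strand, a gene called higher in the 2KO-labelled libraries (adjusted p = 0.0121), so the level of Gins2 is uncertain.

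In nucleotide supply, Rrm1 gave the greatest decrease of all 49 genes. Rrm1 (chromosome 7, 102441695 to 102469771) encodes the large subunit of ribonucleotide reductase, which turns ribonucleotides into deoxyribonucleotides. It had 104 and 130 CPM in the 2KO-labelled libraries, against 202 and 289 CPM in control. The control values lay far apart, yet both were above the 2KO-labelled ones. The gene averaged 117 ± 17.9 CPM in the 2KO-labelled libraries and 245 ± 61.0 CPM in control (SD, n = 2 each). It fell by a log2 fold change of -1.07 (standard error 0.20, edgeR adjusted p = 0.00651), a decrease of 2.10-fold. Over the alternatives its log2 fold change lay between -1.28 and -0.78, and the call ended only on FPKM values (adjusted p = 0.0515 to 0.135). No exon of another gene overlaps it.

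Rrm2, the small subunit that limits the enzyme outside S phase, had 47.2 and 42.5 CPM in the 2KO-labelled libraries, against 54.1 and 92.9 CPM in control. The log2 fold change of -0.71 did not pass (standard error 0.25, edgeR adjusted p = 0.0849). It passed without control replicate 1 (-1.03, adjusted p = 0.000566) and when genes of low count were kept (0.00658). Control replicate 2 was the highest of the 4 libraries. In FPKM the ratio of Rrm1 to Rrm2 was 1.10 and 1.51 in the 2KO-labelled libraries and 1.90 and 1.49 in control, and the groups overlapped. Tk1, thymidine kinase of the salvage path, had 32.8 and 34.5 CPM in the 2KO-labelled libraries, against 42.2 and 40.5 CPM in control (log2 fold change -0.30, adjusted p = 0.38). Tyms, thymidylate synthase, had 64.2 and 56.2 CPM in the 2KO-labelled libraries, against 55.5 and 70.0 CPM in control, and the groups overlapped. A pseudogene named Tyms-ps is also in the files, so some Tyms reads may be split.

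**Figure D4:**
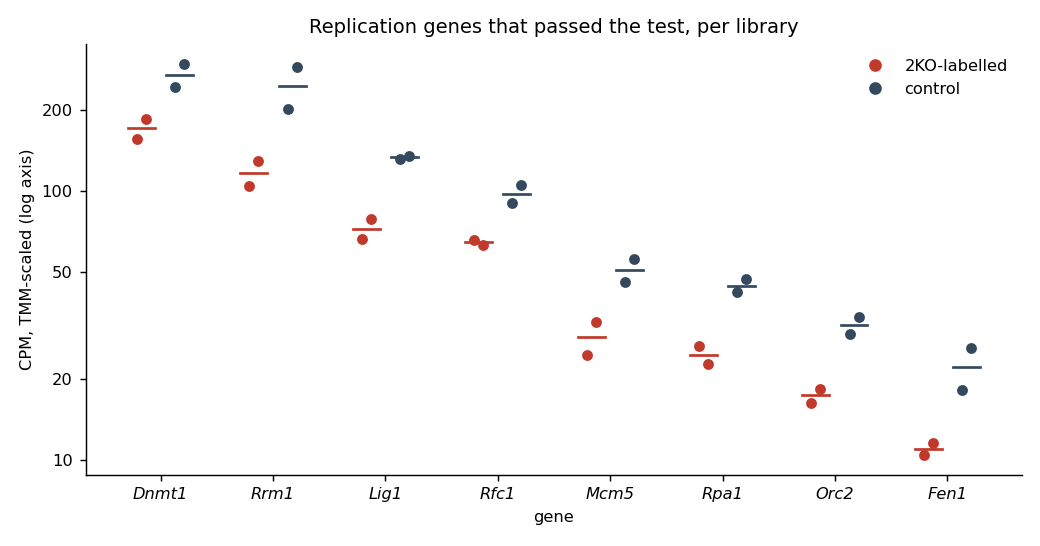
TMM-scaled CPM (y axis, log scale) of the 8 replication genes called lower, ordered by their control mean (x axis), with the 2 libraries labelled 2KO left of the 2 control libraries; points are libraries and bars are means. In each gene both 2KO-labelled points lie below both control points, with Rrm1 at 104 and 130 against 202 and 289 CPM.

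None of the 3 genes that open S phase passed the test. E2f1, a transcription factor that activates replication genes, had 15.3 and 15.2 CPM in the 2KO-labelled libraries, against 14.0 and 16.1 CPM in control. Ccne1, a cyclin that drives Cdk2 at the start of S phase, had 11.001 and 20.04 CPM in the 2KO-labelled libraries, against 17.5 and 18.2 CPM in control (log2 fold change -0.20, edgeR adjusted p = 0.742). Its relative Ccne2 had 6.58 and 6.93 CPM in the 2KO-labelled libraries, against 7.84 and 11.4 CPM in control (log2 fold change -0.51, adjusted p = 0.459). E2f1 and Ccne1 overlapped between the groups, and Ccne2 was lower in both 2KO-labelled libraries without passing.

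The genes that copy DNA methylation behind the fork were lower by similar amounts, and 1 passed. Dnmt1 (chromosome 9, 20907209 to 20959888), the maintenance DNA methyltransferase, had 156 and 185 CPM in the 2KO-labelled libraries, against 244 and 298 CPM in control. It fell by a log2 fold change of -0.66 (standard error 0.17, edgeR adjusted p = 0.0267). The call ended without control replicate 2 (adjusted p = 0.058) and without 2KO-labelled replicate 1 (0.135). Uhrf1, which binds hemimethylated DNA and recruits Dnmt1, had 58.7 and 83.8 CPM in the 2KO-labelled libraries, against 104 and 119 CPM in control. Its log2 fold change of -0.65 just missed the threshold (standard error 0.20, adjusted p = 0.059). It passed with DESeq2 (adjusted p = 0.0267) and limma-voom (0.0371), without control replicate 1 (0.0138) and without 2KO-labelled replicate 2 (0.0115). In FPKM the ratio of Dnmt1 to Uhrf1 was 1.99 and 1.62 in the 2KO-labelled libraries and 1.75 and 1.79 in control.

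At the median, the 8 genes that fell had more reads than the other members and smaller standard errors. Their median over all libraries was 60.5 CPM, against 22.4 CPM for the 41 genes not called, with median standard errors of 0.21 and 0.26 on the log2 scale. Among the 8, Fen1 went against this, with a mean of 16.6 CPM and a standard error of 0.29. Per length the medians were close, at 14.7 FPKM for the 8 and 13.02 FPKM for the 41. The median transcript length was 4156 bases for the 8 and 2962 bases for the 41. Across the 49 members, which share the same libraries, Spearman's rho of the log2 fold change was -0.21 with mean CPM, 0.09 with transcript length and -0.0041 with GC content. Exons of other genes overlap 18 of the 49 members and 4 of the 8 that fell, among them 44 bases of Rpa1 shared with Gm47300, and no overlap is annotated for Mcm5, Rfc1, Rrm1 or Dnmt1. Within 1000 bases of 13 members the start of a protein-coding gene on the other strand was annotated. None of the 12 such neighbours tested was called, where 4.92% of all genes tested were called lower and 7.00% higher. Their log2 fold changes ran from -1.05 (Smyd4 beside Rpa1, at 2.15 to 7.92 CPM) to 0.77 (Afmid beside Tk1). Tmem258 beside Fen1 stood at -0.034 and Prkdc beside Mcm4 at -0.19.

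Other genes of replication came from 5 lists that also hold chromatin assembly and G1/S control. Of 91 tested genes in these lists 8 fell and 1 rose, where 4.92% of all genes tested were called lower and 7.00% higher, and the median log2 fold change was -0.25. The same 4.92% and 7.00% are the background of each list that follows. None of 13 other licensing and firing genes was called, and Topbp1, the most abundant of them, had 108 and 121 CPM in the 2KO-labelled libraries, against 165 and 149 CPM in control (edgeR adjusted p = 0.0941). Of 23 other fork and checkpoint genes 4 fell. Top2a, the topoisomerase that unlinks the daughter strands, had 253 and 315 CPM in the 2KO-labelled libraries, against 600 and 573 CPM in control (log2 fold change -1.05, adjusted p = 0.00167). Tipin, a fork protection factor, had 19.6 and 19.6 CPM in the 2KO-labelled libraries, against 38.8 and 45.6 CPM in control (adjusted p = 0.0101). Ssrp1 and Supt16, the subunits of the histone chaperone FACT, fell by log2 fold changes of -0.77 and -0.67 (adjusted p = 0.0123 and 0.0183). In nucleotide supply 2 of 16 fell, Nme1 (log2 fold change -0.99, adjusted p = 0.00826) and the deoxycytidine kinase gene Dck (-0.72, 0.0242). None of 9 chromatin assembly genes was called, and Nasp, the most abundant, stood at -0.33 (adjusted p = 0.178). Without 2KO-labelled replicate 1 the calls of Ssrp1, Supt16 and Dck ended (adjusted p = 0.0784, 0.0622 and 0.104), and without 2KO-labelled replicate 2 those of Supt16 and Dck (0.0515 and 0.0882).

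Of 30 G1/S regulators 2 fell (6.67%) and 1 rose, which is near the 4.92% of all genes called lower and below the 7.00% called higher. Ccna2, the cyclin of S phase and G2, had 54.2 and 61.8 CPM in the 2KO-labelled libraries, against 104 and 131 CPM in control (log2 fold change -1.02, edgeR adjusted p = 0.00603). Cdk6, a G1 kinase, had 452 and 419 CPM in the 2KO-labelled libraries, against 290 and 293 CPM in control (log2 fold change 0.58, adjusted p = 0.0231). The Cdk6 call ended without 2KO-labelled replicate 1 (adjusted p = 0.12) and after the GC content and length correction (0.166). The kinase inhibitor gene Cdkn1b also fell (log2 fold change -0.87, adjusted p = 0.0488), a call that ended with RLE scaling (0.0505), with upper-quartile scaling (0.0599), without control replicate 1 (0.078) and without 2KO-labelled replicate 1 (0.241) or 2 (0.103). Cdkn2a, a Polycomb target in other tissues named here with its values already known, had 4.25 and 2.92 CPM in the 2KO-labelled libraries, against 0.588 and 0 CPM in control, and did not pass (adjusted p = 0.085).

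Genes of mitosis, which follow replication in the cycle, are set beside the replication genes for comparison. Of 25 mitosis and kinetochore genes 7 fell and none rose, against 4.92% of all genes called lower and 7.00% higher. Their median log2 fold change was -0.61, beside -0.30 for the 49 replication genes. Cenpf and Cenpe, kinetochore proteins, fell by -1.10 and -1.02 (edgeR adjusted p = 0.00165 and 0.00225), and Tpx2 and Mad2l1, of the spindle and its checkpoint, by -0.81 and -0.92 (adjusted p = 0.0106 and 0.018). Mad2l1 lost its call without 2KO-labelled replicate 1 (adjusted p = 0.0615). Both 2KO-labelled libraries lay below both controls for 20 of these 25 genes, against 28.7% of all genes. Whether the lists differ from each other was not tested.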

How the data were processed

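RNA from 2 libraries labelled Ring1a/b 2KO and 2 labelled control was amplified and sequenced as 100-nucleotide single reads, per the labels' protocols. The deposited files hold whole-number read counts per gene and library, and FPKM values that the authors computed. TopHat2 2.0.13, Cufflinks 2.2.1, HTSeq 0.6.1, DESeq2 1.6.3 and the build mm10 are named in the submitters' processing notes; neither the gene annotation nor the use of strand is given in the sources used here, so reads of overlapping genes may be shared or lost. Amplified reads are not independent molecules. Totals ranged from 16256569 to 20624055 counts.

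Counts were fitted with edgeR 4.0.16 in R 4.3.3 (TMM scaling, filterByExpr, quasi-likelihood test of genotype, two-sided, Benjamini-Hochberg over 15336 genes, threshold 0.05). Standard errors are the log2 fold change divided by the root of the F statistic. FPKM values were used to compare levels between genes and in alternatives with limma 3.58.1 (pseudocounts 1 and 0.1). Other alternatives were RLE and upper-quartile scaling, DESeq2 1.42.0, limma-voom, other filters, Rn45s left out, a GC content and transcript length offset, the replicate block and each library left out. In simulated counts for the 2KO against control comparison (14956 genes run, genes of at least 5 CPM changed), 55 of 100 genes changed 2-fold and 84 of 100 changed 4-fold were recovered, 0 with the wrong sign, and 6.71% of calls were unchanged genes. Each simulated gene took its spread from the trend over all genes, with no variation of its own. Fewer genes were changed than were called in the data, so these shares need not hold for the real comparison. Libraries of a group differed beyond counting error, with a chi-square over its degrees of freedom of 22.7 (2KO-labelled) and 28.7 (control).

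The members, the lists and the tests were chosen with earlier results of these data known. Values are printed for every called member, and log2 fold changes also for members with an unadjusted p under 0.05, for the uncalled member of each role with the greatest change or highest FPKM, and for the subunits of 3 complexes. From other lists the called genes with the smallest p are named, at most 4, or the most abundant gene. Coordinates and exon overlaps are from GENCODE M21 (GRCm38, the assembly of mm10), promoter sequences from RefSeq.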

Additional observations from a re-analysis of the deposited data

How the results depend on the processing

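The count of 8 replication genes called lower was 5 with upper-quartile scaling, 13 when no genes were filtered, 13 with the replicate block and GC offset together, 1 on log2(FPKM + 1) and on log2(FPKM + 0.1), 0 on FPKM with no filter, and 3 to 15 when a library was left out. No member was called higher in any of the 17 alternatives. On that unfiltered scale limma called 0 of all genes in either direction, with 1428 lower and 2336 higher at an unadjusted p under 0.05, against the counts of edgeR given here. The number of members with a negative log2 fold change, 36 in the main comparison, lay between 32 and 40 when a library was left out. Over all genes, those called lower (754) were 1242 with no filter, 1300 with the GC content and length offset, 1735 with that offset and the replicate block, 260 and 186 on FPKM values with pseudocounts of 1 and 0.1, and 537 to 1104 when a library was left out. Those called higher (1073) were 627 and 472 on these FPKM values and 839 to 1643 when a library was left out. The GC content and length offset was fitted with an intercept, so it also centred each library on its mean over genes. The mean log2 fold change of all genes was 0.18 in the main comparison. What part this centring had in the shifts under the offset was not tested. With the offset the median of all genes was -0.14, against 0.0065 in the main comparison, and the median of origin licensing was -0.27 (-0.22 with the block). That median was 0.075 on log2(FPKM + 1), 0.077 with a pseudocount of 0.1 and 0.075 with no filter, and -0.19 to 0.050 when a library was left out, so its sign is not settled. The fork and nucleotide medians stayed below 0 in these fits, at -0.43 to -0.24 and -0.64 to -0.29 with a library left out.

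Of the 8 called genes, each kept a negative log2 fold change in the 17 alternatives. On filtered FPKM values the calls of Orc2, Mcm5, Rfc1, Rpa1, Fen1, Rrm1 and Dnmt1 ended and Lig1 kept its call. Of the 13 other called genes named, Top2a, Tipin and Nme1 kept their calls on both filtered FPKM scales. Over the 49 genes and 17 alternatives (833 values) 53 values in 18 genes changed sign; all 18 genes were uncalled. Among genes with a printed log2 fold change, Orc6 stood at 0.0082 with upper-quartile scaling, 0.024 with limma-voom, 0.16 with the GC offset, 0.18 with the offset and block, and 0.090, 0.098 and 0.090 on FPKM. Rfc4 stood at 0.12 and 0.11 with the offset without and with the block, and Mcm4 at 0.075, 0.077 and 0.075 on FPKM. With a library left out, Orc6 lay between -0.33 and 0.36, Orc5 between -0.12 and 0.36, Rfc3 between -0.19 and 0.58, Mcm4 between -0.19 and 0.067 and Ccne1 between -0.71 and 0.16. The cause of these shifts was not tested.

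With the replicate number as a block 11 members were lower, 8 of them those named and the others Gmnn, Pola1 and Uhrf1, and 1156 genes were higher and 880 lower. The replicate numbers are not shown to pair the libraries: deviations of the replicate 1 libraries from their group means correlated across genes at -0.02. Depth limits the members with few reads, such as Gins3.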
